A study of Rattus norvegicus with 21 samples.

Results

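The comparison described here set the retinas of rats kept under LED light at level 1000 (LED1000) against those of control rats, across all genes of the count table. It used the 6 libraries whose treatment labels read LED1000 or control, of 21 libraries in the study, and 16006 of the 19099 genes in the table passed the filter on low counts and were tested. The study sequenced retinal RNA of Sprague Dawley rats, an albino strain, after 6 months of light exposure, with 3 libraries in each of 7 groups. The title of the study names the lights used in dentistry and the barrier between blood and retina. LED1000 rats and control rats share the strain, the tissue and an age of 8 months, which the labels file under another field. No genetic change and no drug is named for any group. What the labels call LED is taken to be the white light of the study's design text, since no other group is left for that name. The labels give no unit for the level 1000, and they do not say what light the control rats received. They do not say that the 3 libraries of a group stem from different rats, so the p-values below set differences against a spread between libraries that may be technical. The groups LED200, Blue1000 and Hal1000 (LED light at level 200, blue light and halogen light at level 1000; 3 libraries each, with the same strain, tissue, exposure and age label) were used at the end to ask which LED1000 levels differed from those under other light.

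The retina turns light into nerve signals in rods and cones, whose outer segments hold the visual pigments and the transducin, phosphodiesterase and cyclic nucleotide gated channel cascade. Bipolar, horizontal, amacrine and ganglion cells carry and shape the signal, Müller glia span the layers, and microglia take up debris. The retinal pigment epithelium renews the visual chromophore and, with its tight junctions, forms the outer blood-retinal barrier, while the endothelium of the retinal vessels forms the inner one. Long or bright light is a known cause of rod loss in albino rats, and Müller glia answer photoreceptor injury with gliosis, marked by glial fibrillary acidic protein.

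The LED1000 libraries held 31501913 to 32966569 counts and the control libraries 30404774 to 33102674. On the first principal component of log2 CPM over all 21 libraries, which held 45.9% of the variance, LED1000 libraries lay at -37.75 to -32.88 and control libraries at 72.49 to 102.4. Of the genes that differed by over 0.5 log2 units between LED1000 replicates 1 and 3, LED1000 replicate 2 lay between them for 83.1% (2356 of 2836), against 45.8% and 55.6% for the other choices within the group and 49.0% to 61.7% within control. In the other light groups used below, the highest shares were 77.4% for Blue1000 replicate 3, 73.6% for Hal1000 replicate 3 and 62.1% for LED200 replicate 3. Whether such a library is independent of the rest of its group was not tested. If it is not, the spread of that group is understated. The median log2 ratio of LED1000 replicate 3 over replicate 1 was 0.27 in the length quartile with the shortest transcripts and -0.27 in that with the longest. For LED1000 over control these medians were 0.18 and -0.04, and the part of transcript length in the differences was not tested. Control replicate 3 held more lens RNA, with a summed level of the lens list of 6483 CPM, against 76 CPM in the lowest control library and 123 to 151 CPM in LED1000. CPM are counts relative to library size after TMM scaling, which corrects library totals for a few very abundant genes. With LED1000 replicate 2 and control replicate 3 both left out, 8088 of 16201 genes were called (49.9%, of which 24.2% higher and 25.7% lower), against 8725 with all libraries.

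A majority of the tested genes differed between LED1000 and control retinas. With a Benjamini-Hochberg adjusted p under 0.05 in edgeR's quasi-likelihood test, 8725 of 16006 genes were called (54.5%). Of these, 4433 were higher (27.7% of those tested) and 4292 lower (26.8%) in LED1000, and 2420 differed by over 2-fold (15.1%), with 1044 higher (6.52%) and 1376 lower (8.6%). The 3 LED1000 and 3 control libraries did not overlap for 9301 genes (58.1%), and 8204 of these were called (51.3% of those tested). A lack of overlap, given below for single genes, was thus the common case. The median log2 fold change of all tested genes was 0.07. The balance of rises and falls depended on the scaling. When libraries were scaled so that a list of bipolar cell genes stayed level (called bipolar scaling below), the median moved by -0.47 and 14.2% of the called genes were higher, against 50.8% under TMM. Of all tested genes, 54.8% were then called, 7.78% higher and 47.0% lower. On log2(FPKM + 1) the median moved by 0.13 and 72.1% of the called genes were higher, which is 43.2% of all tested genes, with 16.8% lower and 60% called. The sign of a small difference thus rested on the scaling, and counts under bipolar scaling are given beside many of the lists. The counts of every list are to be read beside the shares of all tested genes. These are 27.7% higher and 26.8% lower under TMM, and 7.78% higher and 47.0% lower under bipolar scaling. A count near these shares says little about the list itself. As these are whole retinas, fewer cells of a type and less RNA per cell cannot be told apart.

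**Figure D1:**
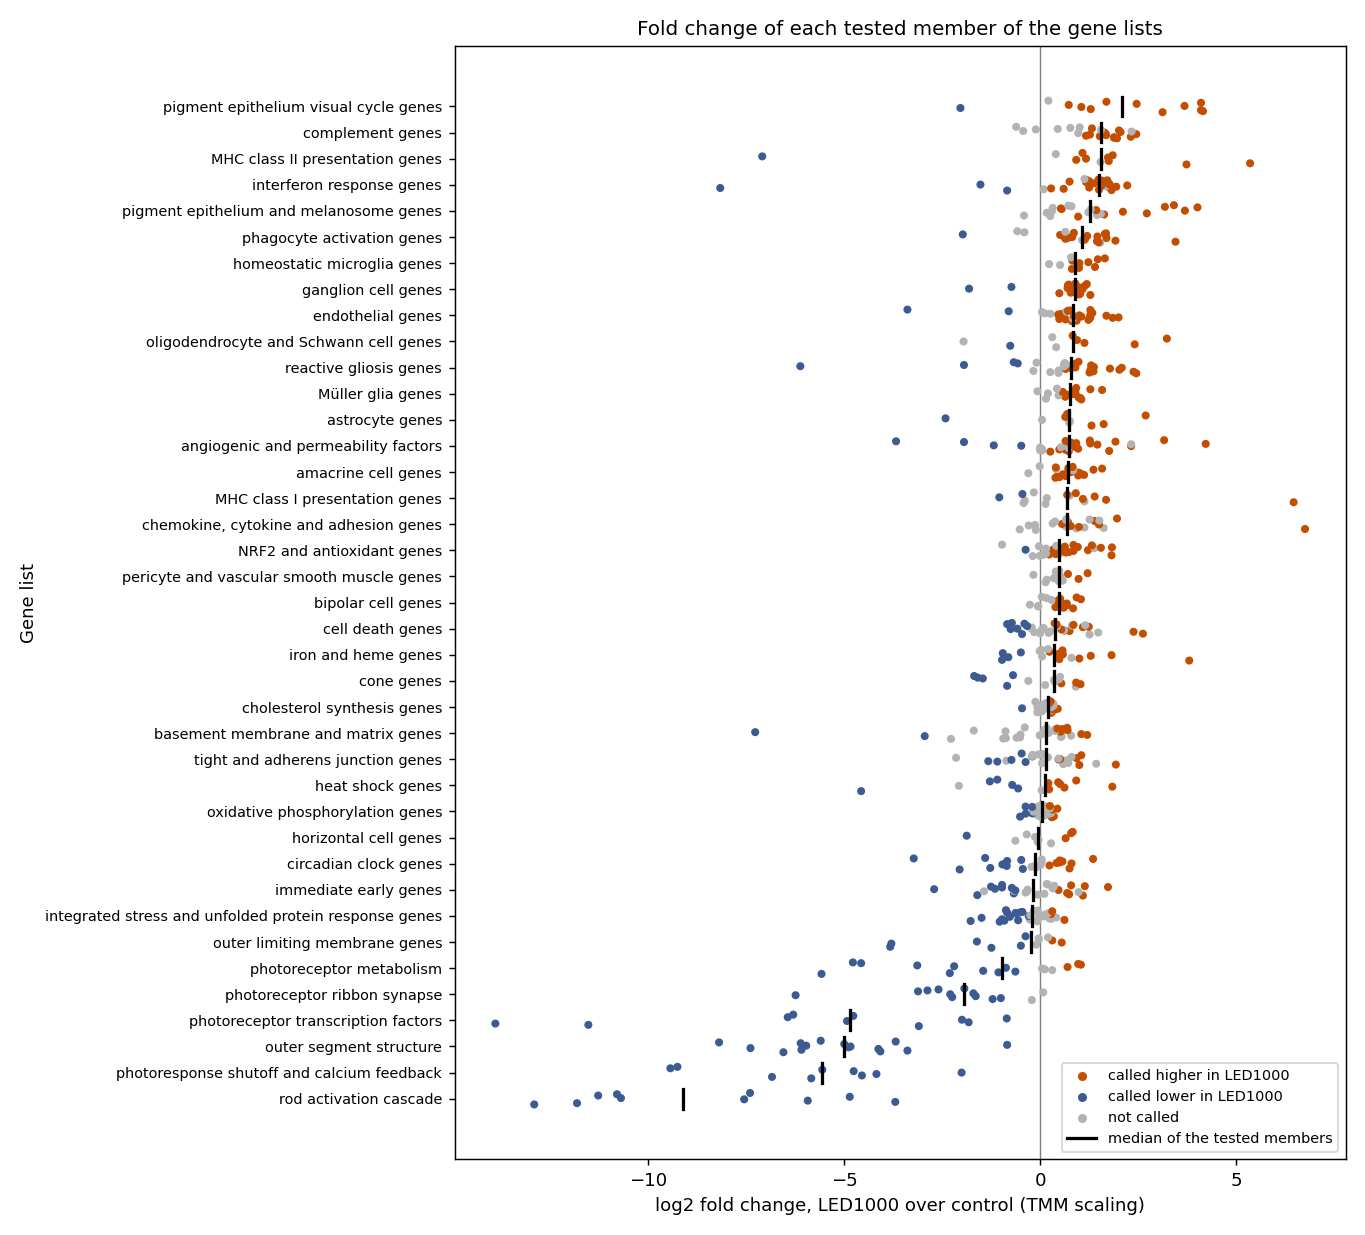
Log2 fold change of each tested member of the gene lists, LED1000 over control, with 1 row per list ordered by median. Orange points were called higher in LED1000, blue points called lower and grey points not called; black bars are medians. The rod and photoreceptor lists lie far to the left, with a median of -9.11 for the rod activation cascade, and the visual cycle list of the pigment epithelium has the highest median, 2.08.

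Rod transcripts were lower in LED1000 retinas by a wide margin. Of the 35 matched genes on 3 lists of the rod activation cascade, photoresponse shutoff and outer segment structure, 34 were tested and 34 were called lower, beside 26.8% of all tested genes. Their median log2 fold change was -5.88, against 0.07 for all genes. Together they made up 0.149 ± 0.00142% of all counts in LED1000 and 8.61 ± 0.322% in control (SD, n = 3 each). The lists include Gnb1 and Gnb5, which other neurons express as well, and genes of outer segments, which cones also have. The share left in LED1000 thus cannot be read as rod RNA alone. The same 34 calls in the same direction were made under bipolar scaling, on FPKM values and without the 2 libraries that stand apart.

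Within the activation cascade, Gnat1, the rod transducin α subunit that couples the visual pigment to the phosphodiesterase, had 4.42, 4.52 and 1.08 CPM in LED1000, against 13549, 10434 and 11784 CPM in control. All LED1000 libraries lay more than 1000-fold below every control library (log2 fold change -11.80 ± 1.41, adjusted p = 5.8e-06). Pde6b, the β subunit of the rod phosphodiesterase, had 1.62, 1.06 and 1.52 CPM in LED1000, against 2459.7, 2368 and 2104 CPM in control (log2 fold change -10.68 ± 1.12, adjusted p = 1.6e-06). Cnga1 and Cngb1 form the cyclic nucleotide gated channel that closes in the light. Cnga1 had 0.354, 0.431 and 0.264 CPM in LED1000, against 924, 869 and 807 CPM in control (log2 fold change -11.26 ± 0.998, adjusted p = 2.5e-07). Cngb1 averaged 0.467 ± 0.178 CPM in LED1000 and 825 ± 22.4 CPM in control (log2 fold change -10.78 ± 1.29, adjusted p = 6.2e-06). Gnb1, a transducin β subunit found widely in neurons, had the smallest fall of the cascade and averaged 438 ± 23.6 CPM in LED1000 and 5647 ± 357 CPM in control (log2 fold change -3.69 ± 0.141, adjusted p = 2.1e-12). The cascade list summed to 601 to 631 CPM in LED1000, so Gnb1 made up most of what remained of it. Pde6g, the inhibitory γ subunit of the phosphodiesterase, had 102, 118 and 134 CPM in LED1000, against 3652, 3128 and 3461 CPM in control (log2 fold change -4.85 ± 0.318, adjusted p = 4.1e-09). Pde6a, its α subunit, averaged 22.2 ± 2.72 CPM in LED1000 and 4129 ± 294 CPM in control (log2 fold change -7.54 ± 0.626, adjusted p = 1.1e-07). Gngt1, the rod transducin γ subunit, and Slc24a1, the exchanger that removes calcium from the outer segment, had log2 fold changes of -5.92 and -7.39.

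Genes that end the photoresponse fell as well. Sag, the arrestin that caps the activated pigment, had 59.6, 66.9 and 77 CPM in LED1000, against 8734, 8510.4 and 5848 CPM in control, without overlap (log2 fold change -6.83 ± 0.533, adjusted p = 5.4e-08). Guca1b, a calcium sensor of guanylate cyclase, averaged 1.47 ± 0.538 CPM in LED1000 and 1007 ± 59.1 CPM in control (log2 fold change -9.42 ± 1.03, adjusted p = 2.3e-06). Gucy2f, a photoreceptor guanylate cyclase that makes cyclic GMP, averaged 0.155 ± 0.116 CPM in LED1000 and 96.4 ± 19.4 CPM in control (log2 fold change -9.24 ± 0.919, adjusted p = 6.8e-07). Gnb5, which pairs with RGS proteins in many neurons, had the smallest fall on this list, with a log2 fold change of -2.0. Rcvrn, recoverin, a calcium sensor of rhodopsin kinase, averaged 47.9 ± 5.3 CPM in LED1000 and 1287 ± 49.6 CPM in control (log2 fold change -4.75 ± 0.263, adjusted p = 3.4e-10). Guca1a, another sensor of guanylate cyclase, and Rgs9, which speeds the shutoff of transducin, had log2 fold changes of -5.55 and -4.54.

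Outer segment genes had log2 fold changes of -8.18 to -0.84. Prph2, the tetraspanin of the disc rim, had 38.4, 44.6 and 46.9 CPM in LED1000, against 4289.8, 3794 and 4001 CPM in control (log2 fold change -6.54 ± 0.45, adjusted p = 1.2e-08). Its partner Rom1 averaged 108 ± 13.6 CPM in LED1000 and 1814 ± 139.9 CPM in control (log2 fold change -4.07 ± 0.159, adjusted p = 2.1e-12). Abca4, which flips retinoids across the disc membrane, averaged 94.9 ± 13.6 CPM in LED1000 and 1653 ± 65.9 CPM in control (log2 fold change -4.12 ± 0.228, adjusted p = 2.2e-10). Prom1 and Prcd, which act in the growth of discs, and Rp1l1, a microtubule protein of the axoneme, had log2 fold changes of -3.38, -3.68 and -4.88. Spata7, a connecting cilium protein, lay at the small end of the range, with 21.1 to 24.1 CPM in LED1000 and 32.6 to 46.9 CPM in control and no overlap.

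**Figure D2:**
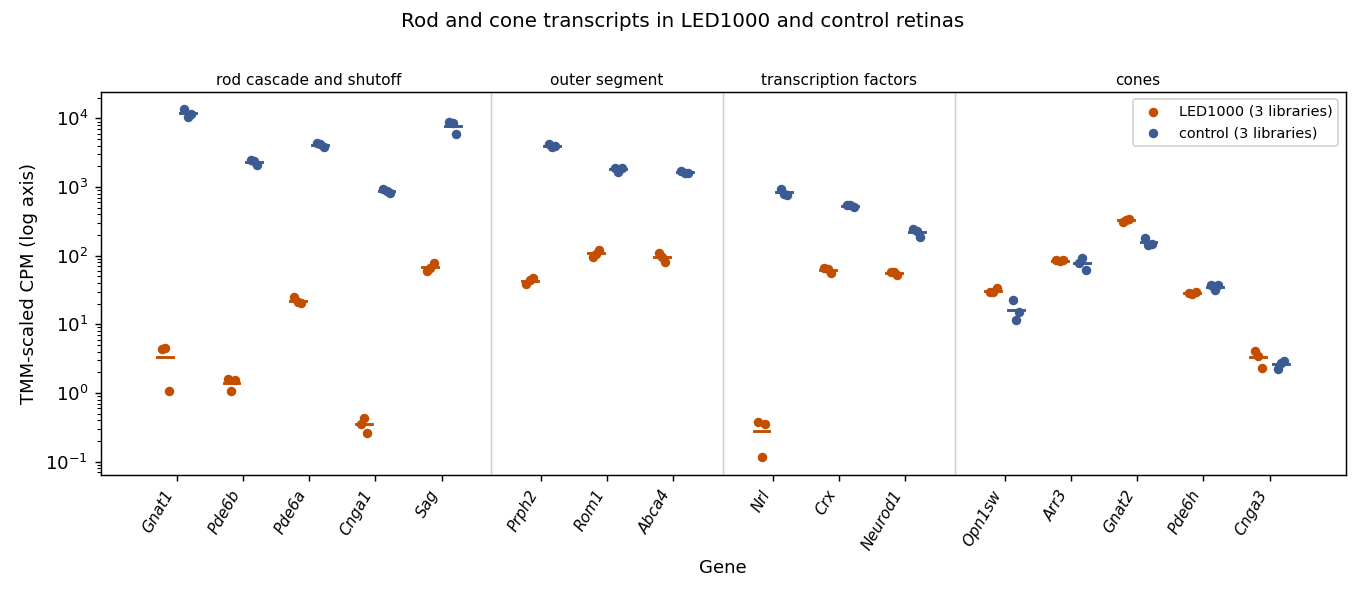
TMM-scaled CPM on a log axis of rod, transcription factor and cone genes in each library; points are libraries (orange LED1000, blue control) and bars the means of 3. Gnat1 lies at 1.08 to 4.52 CPM in LED1000 and at 10434 to 13549 CPM in control, while the Arr3 and Cnga3 values of LED1000 and control overlap.

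The 10 photoreceptor transcription factors were all called lower, with a median of -4.84. Nrl, which directs the rod fate, had 0.383, 0.115 and 0.352 CPM in LED1000, against 948, 786 and 768 CPM in control (log2 fold change -11.51 ± 1.26, adjusted p = 2.4e-06). Nr2e3, which represses cone genes in rods, had 1, 3 and 0 counts in LED1000, against 16383, 19606 and 17573 counts in control. Crx, which rods and cones share, had 66.6, 64 and 56.7 CPM in LED1000, against 542, 549 and 506 CPM in control (log2 fold change -3.09 ± 0.162, adjusted p = 4.8e-11). Neurod1, a factor of photoreceptor survival, averaged 55.9 ± 3.08 CPM in LED1000 and 221 ± 28.4 CPM in control (log2 fold change -1.99 ± 0.119, adjusted p = 1.6e-10). Prdm1, which sets photoreceptor against bipolar fate, and Samd7, which silences genes of other types in rods, had log2 fold changes of -4.92 and -6.43. All LED1000 libraries held over 50 CPM of Crx, but under 1 CPM of Nrl and of Nr2e3.

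The start regions of some of these genes carry short sequence words known from Crx and Nrl binding. They are shown for 4 genes of the rod lists that fell and for 1 cone opsin gene that was not called. The words searched were TAATCC, the core bound by Crx and its relatives, and TGCTGA, part of the site bound by Nrl and other Maf factors, on both strands, so that GGATTA and TCAGCA count as well. The words do not overlap each other in these regions. Sequences are from RefSeq on GRCr8, 300 bases each, from 250 bases before to 50 bases after the annotated start, printed 5′ to 3′ on the gene's strand with the words in capitals. Cngb1 lies at chr19:9732396-9732695 (plus strand), Gucy2f at chrX:110604968-110605267 (minus), Prph2 at chr9:21579025-21579324 (minus), Pde6b at chr14:1511386-1511685 (minus) and Opn1sw at chr4:58945776-58946075 (minus).
Cngb1: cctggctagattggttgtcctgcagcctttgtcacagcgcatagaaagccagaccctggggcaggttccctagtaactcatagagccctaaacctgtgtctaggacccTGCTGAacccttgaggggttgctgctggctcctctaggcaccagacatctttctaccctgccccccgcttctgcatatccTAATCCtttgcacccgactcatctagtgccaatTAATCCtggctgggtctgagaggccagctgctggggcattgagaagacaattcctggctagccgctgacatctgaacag
Gucy2f: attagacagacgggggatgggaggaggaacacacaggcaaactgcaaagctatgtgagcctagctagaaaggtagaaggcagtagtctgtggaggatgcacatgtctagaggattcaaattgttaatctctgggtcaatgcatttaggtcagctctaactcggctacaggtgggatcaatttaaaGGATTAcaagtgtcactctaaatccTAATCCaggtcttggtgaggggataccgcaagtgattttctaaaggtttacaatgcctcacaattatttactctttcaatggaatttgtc
Prph2: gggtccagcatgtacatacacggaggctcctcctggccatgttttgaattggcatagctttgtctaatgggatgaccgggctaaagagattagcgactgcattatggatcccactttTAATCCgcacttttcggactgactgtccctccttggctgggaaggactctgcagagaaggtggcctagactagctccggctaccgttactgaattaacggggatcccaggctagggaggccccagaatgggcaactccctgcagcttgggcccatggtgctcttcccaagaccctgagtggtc
Pde6b: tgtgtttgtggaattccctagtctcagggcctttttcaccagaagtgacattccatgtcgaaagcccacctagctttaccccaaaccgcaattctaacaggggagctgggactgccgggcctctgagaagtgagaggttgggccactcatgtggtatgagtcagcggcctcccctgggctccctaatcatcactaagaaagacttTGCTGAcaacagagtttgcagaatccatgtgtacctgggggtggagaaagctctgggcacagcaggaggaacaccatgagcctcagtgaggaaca
Opn1sw: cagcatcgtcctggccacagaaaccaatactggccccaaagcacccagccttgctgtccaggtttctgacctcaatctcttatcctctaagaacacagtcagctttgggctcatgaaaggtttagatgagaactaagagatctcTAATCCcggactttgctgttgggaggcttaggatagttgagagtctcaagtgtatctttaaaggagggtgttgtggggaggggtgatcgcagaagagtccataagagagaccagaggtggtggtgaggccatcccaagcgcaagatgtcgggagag
Cngb1 holds TAATCC at -62 and -29 and TGCTGA at -142 from the start site, Gucy2f holds TAATCC at -65 and -40, Prph2 holds it at -133, and Pde6b holds TGCTGA at -45. Opn1sw holds TAATCC at -106. Of the 36 genes on the rod lists, 28 had a sequence, and 8 of these held TAATCC (28.6%) and 8 held TGCTGA (28.6%). Of 8 cone list genes with a sequence, 2 held TAATCC (25.0%) and 1 TGCTGA (12.5%). Among all 33469 promoters of the same length the shares were 7.17% and 18.4%, and among those of tested genes 5.68% and 16.7%. A match is a description of letters and no evidence of binding.

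Genes on the cone list had no common direction. Of its 15 tested members, 3 were called higher and 5 lower, beside 27.7% and 26.8% of all tested genes, and 7 were not called. The median log2 fold change of the list was 0.35. Under bipolar scaling 2 were higher and 6 lower and the median was -0.13. Opn1sw, the short-wavelength cone opsin, had 29.7, 29.2 and 33.3 CPM in LED1000, against 22.6, 11.5 and 14.9 CPM in control. The groups did not overlap, but the difference was not called (log2 fold change 0.91 ± 0.392, adjusted p = 0.061). It was called without control replicate 1, with a log2 fold change of 1.21, on log2(FPKM + 1) with 1.14, on log2(FPKM + 0.1) and when only the 6 libraries were fitted. Opn1mw, the middle-wavelength cone opsin, had 39.7, 38 and 28.3 CPM in LED1000, against 58.8, 65.4 and 65.6 CPM in control and was called lower (log2 fold change -0.84 ± 0.316, adjusted p = 0.034). The call was lost without LED1000 replicate 2 or 3 or any 1 control library, with adjusted p of 0.05 to 0.13, and on FPKM values (adjusted p 0.12 to 0.13). Arr3, cone arrestin, had 85.5, 83.3 and 86 CPM in LED1000, against 79.3, 93 and 61.3 CPM in control, and the groups overlapped (log2 fold change 0.13 ± 0.262, adjusted p = 0.71). Gnat2, the cone transducin α subunit, had 310.3, 330.1 and 339 CPM in LED1000, against 184, 145 and 149.7 CPM in control, all LED1000 libraries above all control libraries (log2 fold change 1.03 ± 0.147, adjusted p = 9.4e-06). The other called rises were Gngt2 and Gnb3, cone transducin γ and β subunits, with log2 fold changes of 0.92 and 0.54. The call of Gnb3 was lost under bipolar scaling (adjusted p 0.52). The other called falls were -1.59 for Thrb, the thyroid hormone receptor that sets cone opsin choice, -1.46 for Kcne2, -1.68 for Cnnm4 and -0.69 for Pde8b. The difference between the rod and cone lists was not tested as such.

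Genes of the photoreceptor ribbon synapse were lower, with 11 of 13 tested members called lower, none called higher and a median of -1.93. Cabp4, a calcium sensor at the photoreceptor terminal, had 7.07, 9.06 and 7.03 CPM in LED1000, against 650.3, 625 and 460.3 CPM in control (log2 fold change -6.23 ± 0.497, adjusted p = 6.3e-08). Cacna1f, the pore of its calcium channel, averaged 257 ± 42.2 CPM in LED1000 and 1211 ± 264 CPM in control (log2 fold change -2.24 ± 0.207, adjusted p = 9.9e-08). Slc17a7, a vesicular glutamate transporter that bipolar cells also use, averaged 682 ± 24.7 CPM in LED1000 and 2209 ± 39.5 CPM in control (log2 fold change -1.70 ± 0.091, adjusted p = 4.5e-11). Elfn1, which joins rods to bipolar cells, Egflam, which encodes the matrix protein pikachurin, and Unc119, a carrier of lipidated proteins, had log2 fold changes of -2.87, -3.11 and -2.29.

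Of 16 genes of photoreceptor metabolism, 10 were lower and 3 higher. Hk2, the hexokinase of photoreceptor aerobic glycolysis, had 11.7, 9.84 and 8.73 CPM in LED1000, against 592, 446 and 400.3 CPM in control, without overlap (log2 fold change -5.57 ± 0.358, adjusted p = 3.7e-09). Elovl4 and Elovl2, elongases that make very long chain fatty acids for outer segments, were lower. Elovl4 averaged 73.4 ± 1.23 CPM in LED1000 and 642 ± 15.8 CPM in control (log2 fold change -3.13 ± 0.111, adjusted p = 8.5e-13), and Elovl2 averaged 67.7 ± 4.55 CPM in LED1000 and 309 ± 30.8 CPM in control (log2 fold change -2.19 ± 0.2, adjusted p = 7.8e-08). Nxnl1, which encodes rod-derived cone viability factor, averaged 15.2 ± 1.73 CPM in LED1000 and 359 ± 50.3 CPM in control (log2 fold change -4.56 ± 0.282, adjusted p = 1.6e-09). Pfkfb2, which sets the level of a glycolysis activator, was lower at -2.30. The desaturase genes Fads1 and Fads2 and brain creatine kinase, Ckb, were the called rises, with log2 fold changes of 0.97, 1.04 and 0.70.

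The largest falls outside the lists included transcripts that were nearly or wholly missing from LED1000. Clul1, a clusterin-like gene of photoreceptors, had 1, 0 and 0 counts in LED1000, against 6724, 5212 and 5209 counts in control. The ratio of control over LED1000 was 21151, with an exact 95% counting interval of 3796 to 835451. Mgat4d, Muc3 and Pax7 had 0 counts in all 3 LED1000 libraries; against a floor of 3 counts per library, they were at least 122-fold, 92.6-fold and 78.9-fold lower than in control. Pax7, a paired box factor of muscle precursors and the midbrain, had 277, 121 and 176 counts in the control libraries. Intervals and floors cover counting error only.

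Markers of the inner retinal neurons were higher in most cases. Of 20 bipolar genes, 14 were higher and none lower (median 0.48), beside 27.7% of all tested genes higher. Of 21 amacrine genes, 17 were higher and none lower (median 0.72). Of 21 ganglion cell genes, 19 were higher and 2 lower (median 0.89). Bipolar scaling sets the first list level by construction; it left 10 amacrine genes higher and none lower, and 16 ganglion cell genes higher and 2 lower. Horizontal cell genes had 3 rises and 1 fall among 10 (2 and 3 under bipolar scaling), with a median of -0.05. The 3 rises are near the 27.7% of all tested genes and do not set this list apart. Ndrg1, which is not confined to horizontal cells, was the fall at -1.87, and the rises included Nefl, a neurofilament gene, at 0.83 and Tpm3 at 0.79.

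Among ganglion cell genes, Rbpms, an RNA-binding protein used to count these cells, had 40.3, 45 and 39 CPM in LED1000, against 18.2, 15.7 and 17.2 CPM in control (log2 fold change 1.28 ± 0.101, adjusted p = 5.2e-09). Gap43, a growth cone protein, averaged 61.8 ± 7.99 CPM in LED1000 and 27.1 ± 0.757 CPM in control (log2 fold change 1.19 ± 0.0965, adjusted p = 7.4e-09). Stmn2, a microtubule regulator of neurons, averaged 294 ± 31.8 CPM in LED1000 and 134 ± 8.89 CPM in control (log2 fold change 1.14 ± 0.0853, adjusted p = 2.6e-09). Thy1, a surface protein of these cells, averaged 446 ± 16 CPM in LED1000 and 260 ± 22.1 CPM in control (log2 fold change 0.78 ± 0.064, adjusted p = 9.1e-09). Opn4, the melanopsin of intrinsically photosensitive ganglion cells, went the other way, with 15.9, 15.9 and 14.6 CPM in LED1000, against 59.9, 57.2 and 45.2 CPM in control. Every LED1000 library was below every control library (log2 fold change -1.81 ± 0.233, adjusted p = 3.5e-06). Amacrine transmitter genes included Th, the enzyme that limits dopamine synthesis, with 27.3, 28 and 32.9 CPM in LED1000, against 12.4, 13 and 17.3 CPM in control (log2 fold change 1.04 ± 0.195, adjusted p = 0.00017). Tac1, the substance P precursor, averaged 16.2 ± 2.28 CPM in LED1000 and 5.42 ± 0.858 CPM in control (log2 fold change 1.58 ± 0.165, adjusted p = 1.8e-07). Calb2, calretinin, averaged 1087 ± 154 CPM in LED1000 and 551 ± 29.1 CPM in control (log2 fold change 0.98 ± 0.0906, adjusted p = 3.8e-08). Chat, the enzyme of acetylcholine synthesis in starburst cells, averaged 61.2 ± 1.94 CPM in LED1000 and 31.2 ± 3.01 CPM in control (log2 fold change 0.97 ± 0.098, adjusted p = 1.2e-07). Pax6, an amacrine and ganglion cell factor, and C1ql2 had log2 fold changes of 0.72 and 0.83. Among bipolar genes, Rgs7, which speeds signalling in ON bipolar cells, averaged 193 ± 8.65 CPM in LED1000 and 102 ± 4.87 CPM in control (log2 fold change 0.93 ± 0.0888, adjusted p = 6.4e-08). The transcription factors Vsx1 and Isl1 of bipolar cells had log2 fold changes of 0.84 and 0.68.

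Of 18 Müller glia genes, 13 were higher and none lower, with a median of 0.76; under bipolar scaling 8 were higher and 2 lower. Rlbp1, a retinaldehyde-binding protein, had 709, 730.2 and 802 CPM in LED1000, against 376, 368 and 341 CPM in control (log2 fold change 1.05 ± 0.0906, adjusted p = 1.7e-08). Kcnj10, the potassium channel Kir4.1, averaged 264 ± 19 CPM in LED1000 and 133 ± 4.15 CPM in control (log2 fold change 0.98 ± 0.0749, adjusted p = 3.2e-09), and the water channel gene Aqp4 averaged 159 ± 6.96 CPM in LED1000 and 102 ± 13.4 CPM in control (log2 fold change 0.64 ± 0.113, adjusted p = 8.5e-05). Glul, glutamine synthetase, had 3935, 4052 and 3838 CPM in LED1000, against 3368, 3413 and 3891 CPM in control, and the groups overlapped (log2 fold change 0.15 ± 0.1, adjusted p = 0.22). It was called higher on FPKM values, at 0.42, and with voom quality weights, at 0.23. Under bipolar scaling Glul was called lower, at -0.32 (adjusted p 0.022), so its direction rested on the scaling. The call of Aqp4 was lost under bipolar scaling, with a log2 fold change of 0.17 (adjusted p 0.26). The secreted proteins Dkk3 and Clu were among the most abundant rises. Dkk3 averaged 3901 ± 174 CPM in LED1000 and 2091 ± 163 CPM in control (log2 fold change 0.90 ± 0.0749, adjusted p = 1.1e-08), and Clu averaged 2694 ± 280.1 CPM in LED1000 and 1113 ± 240.4 CPM in control (log2 fold change 1.28 ± 0.168, adjusted p = 4.6e-06). Car2, carbonic anhydrase 2, averaged 1069 ± 133 CPM in LED1000 and 563 ± 8.83 CPM in control (log2 fold change 0.92 ± 0.075, adjusted p = 7.5e-09).

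Reactive gliosis genes moved both ways, with 17 of 30 higher and 4 lower (median 0.79; 12 and 6 under bipolar scaling). A2m, a protease trap, averaged 1350.1 ± 118 CPM in LED1000 and 526 ± 96.7 CPM in control (log2 fold change 1.36 ± 0.132, adjusted p = 7.9e-08), and Cntfr, a receptor of ciliary neurotrophic factor, averaged 139 ± 7.16 CPM in LED1000 and 75 ± 10.2 CPM in control (log2 fold change 0.89 ± 0.0893, adjusted p = 1.1e-07). Gfap, the intermediate filament that marks reactive glia, had 598, 625 and 699.9 CPM in LED1000, against 108, 96.8 and 146 CPM in control, without overlap (log2 fold change 2.45 ± 0.273, adjusted p = 1.4e-06). Lcn2, a secreted lipocalin, had 74.5, 86.6 and 98 CPM in LED1000, against 14.3, 15.1 and 20.4 CPM in control (log2 fold change 2.38 ± 0.473, adjusted p = 0.00057). Osmr, the oncostatin M receptor, averaged 21.2 ± 2.12 CPM in LED1000 and 5.19 ± 2.12 CPM in control (log2 fold change 2.02 ± 0.244, adjusted p = 1.5e-06), and Cebpd, a transcription factor of the acute response, averaged 55.7 ± 9.1 CPM in LED1000 and 13.2 ± 1.44 CPM in control (log2 fold change 2.08 ± 0.245, adjusted p = 1.6e-06). Stat3, which acts downstream of such receptors, was not called, at 188 ± 14.5 CPM in LED1000 and 211 ± 15.2 CPM in control (log2 fold change -0.17). It was called lower under bipolar scaling, at -0.63 (adjusted p 2.8e-05), and with voom quality weights, at -0.16 (adjusted p 0.041). On FPKM values it was 0.1 without a call. Edn2, an endothelin released in photoreceptor injury, had 0.118, 0.288 and 0.0586 CPM in LED1000, against 10.5, 9.86 and 12.6 CPM in control, from 2 to 10 counts per LED1000 library (log2 fold change -6.11 ± 0.894, adjusted p = 2.2e-05; -6.90 without LED1000 replicate 2). Fgf2, a growth factor that protects photoreceptors, had 5.63, 4.11 and 3.11 CPM in LED1000, against 17.5, 15.4 and 16.4 CPM in control (log2 fold change -1.94 ± 0.258, adjusted p = 3.7e-06). Both were lower in every LED1000 library than in any control library. Lif, a cytokine of the same injury response, was not called (log2 fold change 0.66 ± 0.297, adjusted p = 0.066). It was called higher on FPKM values (adjusted p 0.023 to 0.045).

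Astrocyte genes had 5 rises and 1 fall among 9 (3 and 1 under bipolar scaling). Pax2, a factor of optic nerve astrocytes, averaged 3.37 ± 0.113 CPM in LED1000 and 1.35 ± 0.481 CPM in control (log2 fold change 1.31 ± 0.286, adjusted p = 0.0007), and S100b averaged 201 ± 26.6 CPM in LED1000 and 65.4 ± 11.9 CPM in control (log2 fold change 1.62 ± 0.22, adjusted p = 9e-06). Slc1a2, the glutamate transporter GLT-1, was the fall, at 23.2 ± 6.32 CPM in LED1000 and 123 ± 4.23 CPM in control (log2 fold change -2.41 ± 0.27, adjusted p = 1.3e-06); in the retina it is found in cones and bipolar cells. Oligodendrocyte and Schwann cell genes had 5 rises and 1 fall among 9 (3 and 1 under bipolar scaling). Sox10, a factor of both cell types, averaged 4.83 ± 0.35 CPM in LED1000 and 0.508 ± 0.241 CPM in control (log2 fold change 3.23 ± 0.574, adjusted p = 0.00012), and Mog, a myelin glycoprotein, averaged 0.729 ± 0.251 CPM in LED1000 and 0.136 ± 0.116 CPM in control (log2 fold change 2.41 ± 0.726, adjusted p = 0.0086; 3.29 without control replicate 2). Cnp, a myelin enzyme, was higher at 0.94. How much of the optic nerve head stayed on each retina is not given, and its part in these differences was not tested.

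**Figure D3:**
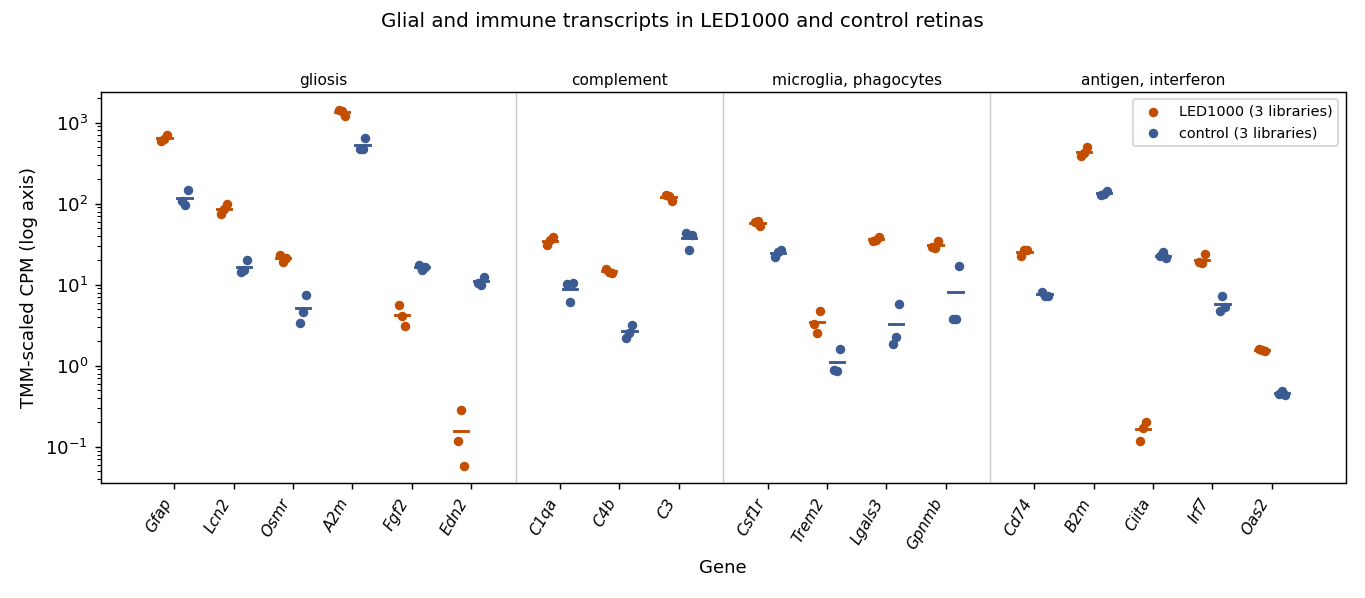
TMM-scaled CPM on a log axis of gliosis, complement, phagocyte, antigen presentation and interferon genes in each library; points are libraries (orange LED1000, blue control) and bars the means of 3. Gfap lies at 598 to 699.9 CPM in LED1000 and 96.8 to 146 CPM in control, and Edn2, Fgf2 and Ciita are the genes shown that lie lower in LED1000.

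Microglia and phagocyte genes were higher. Of 13 homeostatic microglia genes, 9 were higher and none lower (median 0.90; 3 and none under bipolar scaling), and of 23 phagocyte activation genes, 16 were higher and 1 lower (median 1.07; 10 and 1 under bipolar scaling). Csf1r, the receptor that sustains microglia, had 60.1, 61.7 and 53.1 CPM in LED1000, against 22.3, 25.3 and 26.8 CPM in control (log2 fold change 1.23 ± 0.233, adjusted p = 0.00026). Tmem119, a marker of resident microglia, averaged 3.63 ± 0.694 CPM in LED1000 and 2.06 ± 0.38 CPM in control (log2 fold change 0.81 ± 0.246, adjusted p = 0.0089). Selplg, a selectin ligand, Gpr34, a lysophospholipid receptor, and Olfml3 had log2 fold changes of 1.47, 1.0 and 0.82. Trem2, a lipid receptor of phagocytes, averaged 3.52 ± 1.08 CPM in LED1000 and 1.11 ± 0.412 CPM in control (log2 fold change 1.65 ± 0.38, adjusted p = 0.0011). Lgals3, galectin 3 of activated phagocytes, had 34.6, 35.8 and 39.1 CPM in LED1000, against 1.88, 2.29 and 5.74 CPM in control, with all LED1000 libraries above all control libraries (log2 fold change 3.45 ± 0.498, adjusted p = 2.7e-05). Gpnmb averaged 30.9 ± 3.19 CPM in LED1000 and 8.15 ± 7.6 CPM in control (log2 fold change 1.92 ± 0.498, adjusted p = 0.0042); pigment cells also express it, and without control replicate 3 its log2 fold change was 3.02. That of Lgals3 was then 4.11. The growth factor Igf1 and the lysosomal protease Ctsb had log2 fold changes of 0.86 and 0.73. The calls of Ctsb, Gpr34, Olfml3 and Tmem119 were lost under bipolar scaling (adjusted p 0.063 to 0.27), and those of Tmem119 and Gpnmb when only the 6 libraries were fitted (adjusted p 0.052 to 0.073). Fabp5, a fatty acid carrier, was the fall, at 23.3 ± 5.55 CPM in LED1000 and 91.4 ± 12.6 CPM in control (log2 fold change -1.97). Cd68 was not called (log2 fold change 1.53 ± 0.692, adjusted p = 0.069). It was called higher with DESeq2, on log2(FPKM + 0.1) and when only the 6 libraries were fitted (adjusted p 0.024 to 0.037).

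Of 23 complement genes, 14 were higher and none lower, with a median of 1.55; under bipolar scaling 10 were higher and 1 lower. C1qa, a chain of the classical pathway starter, had 30.5, 35.2 and 38.9 CPM in LED1000, against 10.1, 6.07 and 10.6 CPM in control (log2 fold change 1.96 ± 0.389, adjusted p = 0.00049). C4b had 15.6, 14.4 and 13.8 CPM in LED1000, against 2.22, 2.55 and 3.21 CPM in control (log2 fold change 2.45 ± 0.293, adjusted p = 1.1e-06); it could share reads with a near copy. C3, the component on which the pathways meet, averaged 119 ± 11.4 CPM in LED1000 and 37.3 ± 8.88 CPM in control (log2 fold change 1.68 ± 0.469, adjusted p = 0.0071). C1s, a protease of the classical pathway, and Serping1, which inhibits it, had log2 fold changes of 2.31 and 2.01. The groups did not overlap for C1qa, C4b or C3, as for 58.1% of all tested genes.

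Antigen presentation genes were mixed. In the class II list 8 of 11 were higher and 1 lower (2 and 1 under bipolar scaling; 4 and 1 without the 2 libraries that stand apart). Cd74, the invariant chain, had 22.4, 26.6 and 26.9 CPM in LED1000, against 8.16, 7.31 and 7.36 CPM in control (log2 fold change 1.73 ± 0.65, adjusted p = 0.035). The groups did not overlap, but the call of Cd74 was lost without any 1 of the 6 libraries, with adjusted p of 0.051 to 0.087. Ciita, the transactivator of class II genes, had 0.118, 0.173 and 0.205 CPM in LED1000, against 22.5, 25 and 21.3 CPM in control, without overlap (log2 fold change -7.08 ± 0.789, adjusted p = 8.8e-07). Ctsh, a lysosomal protease, had a log2 fold change of 1.08, and the class II genes RT1-Ba and RT1-Bb had 3.73 and 5.35 (6.60 for RT1-Bb without control replicate 3). The number of rises on this list was 5 without LED1000 replicate 2 or any 1 control library. In the class I list 6 of 15 were higher and 2 lower (3 and 4 under bipolar scaling). B2m, the light chain, averaged 434 ± 59.2 CPM in LED1000 and 136 ± 8.05 CPM in control (log2 fold change 1.68 ± 0.274, adjusted p = 7.9e-05). Psmb8, an immunoproteasome subunit, averaged 9.54 ± 1.36 CPM in LED1000 and 3.63 ± 0.881 CPM in control (log2 fold change 1.39 ± 0.335, adjusted p = 0.0017). Tapbp, tapasin, which loads peptides, was lower at 42.5 ± 1.57 CPM in LED1000 and 87.1 ± 15.3 CPM in control (log2 fold change -1.04 ± 0.171, adjusted p = 5.3e-05). The class I gene RT1-CE16 had 165, 163 and 185 CPM in LED1000, against 0.554, 0.75 and 4.39 CPM in control (log2 fold change 6.46 ± 1.54, adjusted p = 0.0026), and its log2 fold change was 8.01 without control replicate 3. The calls of Cd74 and Ctsh were lost under bipolar scaling (adjusted p 0.054 to 0.11), and those of Cd74 and the RT1 genes named here with voom quality weights (adjusted p 0.095 to 0.29). RT1 genes have near-identical copies that differ between rats, and reads could be split between them in the counting, so their values are uncertain.

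Of 28 genes of the interferon response, 22 were higher and 3 lower, with a median of 1.5 (13 and 3 under bipolar scaling; 14 and 2 without the 2 libraries). Irf7, a factor that amplifies the response, had 18.9, 18.6 and 23.7 CPM in LED1000, against 4.8, 7.27 and 5.3 CPM in control (log2 fold change 1.82 ± 0.537, adjusted p = 0.0092). Bst2, a membrane tether of virions, averaged 23.5 ± 2.92 CPM in LED1000 and 6.93 ± 1.37 CPM in control (log2 fold change 1.76 ± 0.309, adjusted p = 0.00011), and Xaf1 averaged 11.5 ± 0.318 CPM in LED1000 and 3.53 ± 0.891 CPM in control (log2 fold change 1.71 ± 0.373, adjusted p = 0.00077). Gbp5, a guanylate-binding protein, and Dhx58, an RNA sensor, had log2 fold changes of 1.73 and 1.18. Irf1 and Oasl were lower, with log2 fold changes of -0.84 and -1.52. Ifit1 had 0 counts in all LED1000 libraries, against 6, 31 and 55 counts in control, at least 12.3-fold lower. Its relatives Ifit2 and Ifit3 were higher, at 1.25 and 1.75. The call of Ifit1 was lost without any 1 LED1000 library or control replicate 2 or 3 (adjusted p 0.054 to 0.073), and that of Ifit2 without LED1000 replicate 2 or control replicate 2 or 3 (0.057 to 0.08). The calls of Irf7 and Ifit2 were lost under bipolar scaling (adjusted p 0.05 to 0.15), that of Irf1 on FPKM values (adjusted p 0.056) and that of Ifit1 on log2(FPKM + 1) and with voom quality weights. Ifit1 belongs to a family of near copies, so its count is uncertain. Among 24 chemokine, cytokine and adhesion genes, 9 were higher and none lower (5 and none under bipolar scaling); Cxcl12, a chemokine of vessels and glia, averaged 118 ± 3.56 CPM in LED1000 and 59.7 ± 2.54 CPM in control (log2 fold change 0.99 ± 0.0789, adjusted p = 6e-09). Cx3cl1, fractalkine, which neurons show to microglia, averaged 102 ± 6.34 CPM in LED1000 and 59.6 ± 4.07 CPM in control (log2 fold change 0.78 ± 0.0798, adjusted p = 1.5e-07). Ptprc, the leukocyte antigen CD45, averaged 3.42 ± 0.77 CPM in LED1000 and 0.874 ± 0.0756 CPM in control (log2 fold change 1.96 ± 0.305, adjusted p = 2.3e-05). Ccl4, a chemokine, had 12, 12 and 18 counts in LED1000 and 0 in all 3 control libraries, at least 3.78-fold higher. Among 5 tested lymphocyte and neutrophil genes, 1 was higher and 1 lower; the rise was Cd4, a surface protein of helper T cells and some phagocytes, at 1.26.

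The barrier named in the study's title was read through junction, endothelial and permeability genes. Tight and adherens junction genes had no common direction: 6 of 28 were higher and 6 lower, with a median of 0.15 (2 and 14 under bipolar scaling; 13 and 3 on log2(FPKM + 1)). Of all tested genes, 27.7% were higher and 26.8% lower, so these counts do not set the list apart. Without control replicate 3 there were 10 rises. Cldn5, the main claudin of retinal vessels, had 33.6, 31.4 and 41.4 CPM in LED1000, against 14.6, 15.9 and 22.6 CPM in control, without overlap (log2 fold change 1.0 ± 0.194, adjusted p = 0.00025). Ocln, occludin, had 7.98, 9.87 and 9.5 CPM in LED1000, against 4.88, 2.66 and 9.7 CPM in control, and the groups overlapped (log2 fold change 0.66 ± 0.395, adjusted p = 0.17). Without control replicate 3 its log2 fold change was 1.25 and was called. Tjp1, the scaffold ZO-1, had 229.9, 220 and 168 CPM in LED1000, against 269, 281 and 253 CPM in control (log2 fold change -0.37 ± 0.0983, adjusted p = 0.0033). Its call was lost on FPKM values, with a log2 fold change of -0.11 on log2(FPKM + 1) (adjusted p 0.27 to 0.28). Esam, an endothelial junction protein, averaged 46.8 ± 2.05 CPM in LED1000 and 22.7 ± 3.09 CPM in control (log2 fold change 1.05 ± 0.112, adjusted p = 2.7e-07). Jam2, a junctional adhesion molecule, and Cgn, cingulin, had log2 fold changes of -0.73 and 0.51. Cldn1, which epithelia express, averaged 11.6 ± 1.08 CPM in LED1000 and 3.01 ± 3.13 CPM in control (log2 fold change 1.93 ± 0.623, adjusted p = 0.015). Its log2 fold change was 3.23 without control replicate 3, and its call was lost without control replicate 1 or 2, with adjusted p of 0.059 and 0.066. Under bipolar scaling the calls of Cldn1 and Cgn were lost (adjusted p 0.074 to 0.86).

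Genes of the outer limiting membrane, the row of junctions between Müller glia and photoreceptors, were lower for 6 of 12 and higher for 2 (10 and none under bipolar scaling; 5 and 5 on log2(FPKM + 1)). Crb2, a polarity protein of these junctions, had 9.57, 9.87 and 4.92 CPM in LED1000, against 121, 119.6 and 104 CPM in control (log2 fold change -3.82 ± 0.297, adjusted p = 1.5e-08). Mpp4, a photoreceptor scaffold, averaged 25.3 ± 1.43 CPM in LED1000 and 349 ± 74.3 CPM in control (log2 fold change -3.79 ± 0.327, adjusted p = 1e-07), and Crb1 averaged 135 ± 32.6 CPM in LED1000 and 318 ± 40.1 CPM in control (log2 fold change -1.24 ± 0.191, adjusted p = 3.2e-05). Epb41l5, a partner of the Crumbs proteins, had a log2 fold change of -1.61.

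Of 29 endothelial genes, 22 were higher and 2 lower, with a median of 0.83 (10 and 2 under bipolar scaling). Cdh5, the cadherin of endothelial junctions, had 10.5, 11 and 9.5 CPM in LED1000, against 4.58, 4.39 and 7.23 CPM in control (log2 fold change 0.93 ± 0.256, adjusted p = 0.0046). Mfsd2a, a lipid transporter that restrains transcytosis, had 7.63, 7.42 and 9.5 CPM in LED1000, against 2.66, 1.84 and 5.57 CPM in control (log2 fold change 1.28 ± 0.375, adjusted p = 0.0075). Under bipolar scaling the log2 fold changes of Cdh5 and Mfsd2a were 0.46 and 0.80 and neither was called (adjusted p 0.093 to 0.12). Plvap, which forms the diaphragms of leaky vessels, had 12.9, 13.8 and 17.3 CPM in LED1000, against 8.64, 12.2 and 11.1 CPM in control, without overlap (log2 fold change 0.46 ± 0.186, adjusted p = 0.042). Its call was lost without LED1000 replicate 2 or 3 or control replicate 1 or 3, with adjusted p of 0.055 to 0.2, and under bipolar scaling its fold change was 0. Emcn, endomucin, averaged 6.7 ± 1.22 CPM in LED1000 and 1.67 ± 0.461 CPM in control (log2 fold change 2.0 ± 0.378, adjusted p = 0.00018). Ndp, norrin, a ligand made by Müller glia that vessels need, averaged 36.1 ± 3.7 CPM in LED1000 and 14.9 ± 0.797 CPM in control (log2 fold change 1.28 ± 0.102, adjusted p = 5.6e-09), and Slco1a4, an organic anion transporter of barrier vessels, averaged 34.2 ± 1.37 CPM in LED1000 and 13.6 ± 0.676 CPM in control (log2 fold change 1.33 ± 0.181, adjusted p = 5.2e-06). Podxl, a sialomucin that is not confined to vessels, was lower, at 38.5 ± 3.63 CPM in LED1000 and 401 ± 39.1 CPM in control (log2 fold change -3.38 ± 0.179, adjusted p = 6.7e-11). Pericyte and smooth muscle genes had 3 rises and no fall among 15 (1 and none under bipolar scaling, where the calls of Kcnj8 and Notch3 were lost), at log2 fold changes of 1.21 for Mcam, 0.98 for Kcnj8, a potassium channel subunit of pericytes, and 0.71 for Notch3. The call of Notch3 was lost without LED1000 replicate 1 or 2 or control replicate 1 or 2 (adjusted p 0.1 to 0.16). The number of rises on this list was 5 without LED1000 replicate 3 and 6 without control replicate 3. Of all tested genes 27.7% were higher (7.78% under bipolar scaling), so the number of rises does not set this list apart.

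Of 32 angiogenic and permeability factors, 20 were higher and 4 lower (6 and 4 under bipolar scaling). Vegfa, the main permeability factor, had 360.4, 364 and 375 CPM in LED1000, against 312, 326 and 278 CPM in control (log2 fold change 0.26 ± 0.0903, adjusted p = 0.019). Its log2 fold change was -0.20 under bipolar scaling, and its call was lost without control replicate 3, with an adjusted p of 0.14. Lrg1, a modifier of TGF-β signalling in vessels, had 8.81, 9.23 and 12.4 CPM in LED1000, against 1.37, 1.01 and 1.01 CPM in control (log2 fold change 3.16 ± 0.316, adjusted p = 1.1e-07). Thbs1, a thrombospondin that restrains vessel growth, had 77.9, 69.8 and 58.4 CPM in LED1000, against 2.07, 2.4 and 6.49 CPM in control, without overlap (log2 fold change 4.22 ± 0.718, adjusted p = 0.00016; 4.92 without control replicate 3). Epas1, the hypoxia-inducible factor HIF-2α, averaged 221 ± 14.6 CPM in LED1000 and 501 ± 30.4 CPM in control (log2 fold change -1.18 ± 0.0864, adjusted p = 2e-09). Aplnr, the apelin receptor of growing vessels, averaged 11.9 ± 1.91 CPM in LED1000 and 2.37 ± 1.37 CPM in control (log2 fold change 2.32 ± 0.305, adjusted p = 3.4e-06). Matrix genes were called in few cases, with 7 of 30 higher and 2 lower, beside 27.7% and 26.8% of all tested genes. These counts were 1 and 6 under bipolar scaling, and 10 and 1 without the 2 libraries that stand apart. Without control replicate 3 there were 11 rises. Lamb3, a laminin chain, had 0.412, 0.0575 and 0.147 CPM in LED1000, against 51.6, 33 and 11.4 CPM in control, from 2 to 14 counts per LED1000 library (log2 fold change -7.26 ± 0.835, adjusted p = 1.6e-06; -8.24 without LED1000 replicate 1). Col6a1, a collagen VI chain, Lama2, another laminin chain, and Bcan, brevican, had log2 fold changes of 1.20, 1.05 and 0.57; the calls of Lama2 and Bcan were lost under bipolar scaling (adjusted p 0.1 to 0.52).

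**Figure D4:**
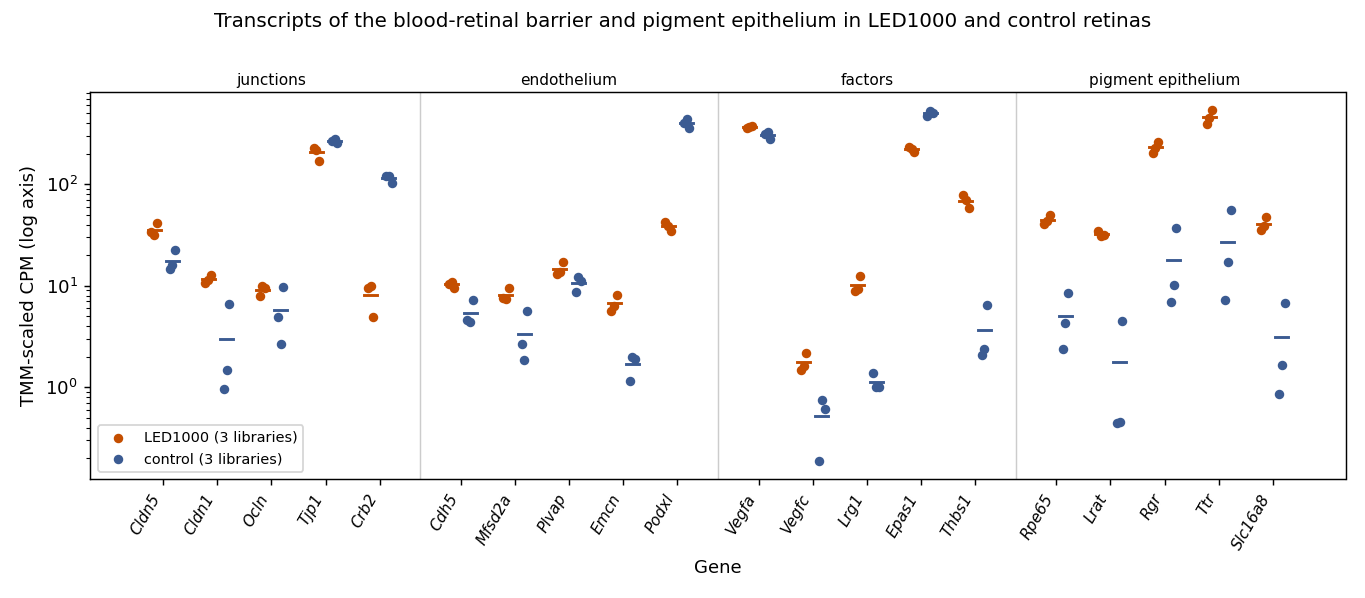
TMM-scaled CPM on a log axis of junction, endothelial, permeability and pigment epithelium genes in each library; points are libraries (orange LED1000, blue control) and bars the means of 3. Cldn5 and Cdh5 lie higher in LED1000, Tjp1, Crb2, Podxl and Epas1 lower, and Rpe65, Lrat, Rgr and Ttr lie above every control library.

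Pigment epithelium transcripts were higher in the LED1000 retinas. Of 12 visual cycle genes, 10 were higher and 1 lower (median 2.08; 9 and 1 under bipolar scaling), and of 22 pigment epithelium and melanosome genes, 11 were higher and none lower (median 1.26; 6 and none under bipolar scaling). Rpe65, the isomerase that regenerates the chromophore, had 40.8, 43 and 49.4 CPM in LED1000, against 2.4, 4.31 and 8.51 CPM in control, without overlap (log2 fold change 3.12 ± 0.606, adjusted p = 0.00048). Lrat, which makes its retinyl ester substrate, had 34.5, 31.1 and 31.9 CPM in LED1000, against 0.443, 0.45 and 4.46 CPM in control (log2 fold change 4.15 ± 0.803, adjusted p = 0.00047). Ttr, the thyroxine and retinol carrier transthyretin, had 390.1, 447 and 545 CPM in LED1000, against 7.24, 17.1 and 55.9 CPM in control (log2 fold change 4.10 ± 0.805, adjusted p = 0.00055). Control replicate 3 had the highest control value of each, and without it the log2 fold changes of Lrat and Ttr were 6.15 and 5.22. Rgr, a retinal G protein receptor of the pigment epithelium and Müller glia, averaged 232 ± 29.2 CPM in LED1000 and 18.1 ± 16.7 CPM in control (log2 fold change 3.68 ± 0.728, adjusted p = 0.00059). Slc16a8, the lactate transporter of the pigment epithelium, averaged 40.6 ± 6.28 CPM in LED1000 and 3.1 ± 3.22 CPM in control (log2 fold change 3.69 ± 0.708, adjusted p = 0.00043). Without control replicate 3, Rgr and Slc16a8 had log2 fold changes of 4.75 and 5.0. The keratin genes Krt8 and Krt18 rose with log2 fold changes of 4.01 and 3.18. Rdh11, a retinol dehydrogenase of photoreceptors, was the fall on the first list (log2 fold change -2.03 ± 0.179, adjusted p = 3.8e-08). Rdh5 and Rdh10, retinol dehydrogenases of the pigment epithelium, rose with log2 fold changes of 4.10 and 1.29 (5.69 for Rdh5 without control replicate 3). Ezr, ezrin of the apical microvilli, and Itgav, an integrin subunit used in the uptake of outer segments, rose with 1.43 and 0.55; the call of Itgav was lost under bipolar scaling (adjusted p 0.34). How much pigment epithelium stayed on each retina at dissection is not given in the labels, and its part in these differences was not tested.

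Other steep rises were found in genes outside the lists. Slco1a5, an organic anion transporter, had 6.83, 6.04 and 5.48 CPM in LED1000, against 0.0739, 0.075 and 0.642 CPM in control (log2 fold change 4.48 ± 0.753, adjusted p = 8.5e-05). Neurog2, a proneural transcription factor, had 6.04, 6.44 and 6.65 CPM in LED1000, against 0.702, 0.262 and 0.135 CPM in control (log2 fold change 4.12 ± 0.543, adjusted p = 3.7e-06). Sbspon averaged 4.24 ± 0.447 CPM in LED1000 and 0.222 ± 0.168 CPM in control (log2 fold change 4.21 ± 0.55, adjusted p = 3.4e-06), Il20ra, an interleukin 20 receptor subunit, averaged 1.87 ± 0.504 CPM in LED1000 and 0.105 ± 0.0868 CPM in control (log2 fold change 4.08 ± 0.576, adjusted p = 7.5e-06), and Fbln5, an elastic fibre protein, averaged 14.6 ± 3.48 CPM in LED1000 and 0.853 ± 0.938 CPM in control (log2 fold change 4.07 ± 0.614, adjusted p = 3.5e-05). Myoc, myocilin of the eye's drainage tissue and ciliary body, averaged 72.7 ± 8.18 CPM in LED1000 and 4.23 ± 5.26 CPM in control (log2 fold change 4.08 ± 0.915, adjusted p = 0.0016). The control libraries held 4 to 19 counts of Neurog2 and 2 to 19 counts of Slco1a5, so these folds rest on few counts. Without control replicate 3 the log2 fold changes were 6.27 for Slco1a5, 4.97 for Sbspon, 4.96 for Il20ra, 5.49 for Fbln5 and 5.88 for Myoc, and without control replicate 1 that of Neurog2 was 4.99.

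Among the most abundant called genes were several of energy metabolism and synapses, with log2 fold changes of -0.79 to 0.87. Psap, prosaposin, averaged 1791 ± 95.1 CPM in LED1000 and 1070.3 ± 126 CPM in control (log2 fold change 0.74 ± 0.0995, adjusted p = 4.1e-06), and Zwint averaged 2185 ± 299 CPM in LED1000 and 1199 ± 66.1 CPM in control (log2 fold change 0.87 ± 0.0847, adjusted p = 8e-08). Bcat1, a branched-chain aminotransferase, and Ckb had log2 fold changes of 0.50 and 0.70. The calls of Psap and Bcat1 were lost under bipolar scaling (adjusted p 0.066 to 0.76). The enolase genes Eno1 and Eno2, the aldolase gene Aldoc and Snap25, a synaptic release protein, had 0.28, 0.16, 0.40 and 0.37, all below 0 under bipolar scaling. The call of Eno2 was lost without LED1000 replicate 1 or 2 or control replicate 2 or 3 (adjusted p 0.051 to 0.13). Pkm, pyruvate kinase, was lower at 1442 ± 104 CPM in LED1000 and 2235 ± 140 CPM in control (log2 fold change -0.63 ± 0.107, adjusted p = 6.1e-05), and Atp1b2, a sodium pump subunit, and Clstn1, a calsyntenin, were lower at -0.79 and -0.77.

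Genes on the circadian clock list were mixed, with 8 of 24 higher and 10 lower (1 and 17 under bipolar scaling). The list also holds output genes and Drd4, so the counts are not those of the oscillator alone. Arntl, which encodes the clock activator BMAL1, had 53.7, 50.7 and 56.8 CPM in LED1000, against 229.6, 237 and 201 CPM in control, without overlap (log2 fold change -2.05 ± 0.115, adjusted p = 6.7e-11). Drd4, a dopamine receptor of photoreceptors with a daily rhythm, averaged 18.9 ± 2.1 CPM in LED1000 and 177 ± 27.5 CPM in control (log2 fold change -3.22 ± 0.204, adjusted p = 6.5e-10). Per1 averaged 61.6 ± 8.37 CPM in LED1000 and 149 ± 16.8 CPM in control (log2 fold change -1.27 ± 0.121, adjusted p = 5.6e-08), while the output gene Dbp averaged 323 ± 39.4 CPM in LED1000 and 186 ± 3.77 CPM in control (log2 fold change 0.80 ± 0.0811, adjusted p = 1.3e-07). Usp2, an output gene that stabilises clock proteins, was lower at -1.40. The labels do not give the time of day of collection. Immediate early genes had 7 rises and 9 falls among 28 (1 and 11 under bipolar scaling; 8 and 6 on log2(FPKM + 1)). Of all tested genes, 27.7% were higher and 26.8% lower. The falls numbered 5 without control replicate 1. Atf3, a stress-induced factor, averaged 2.84 ± 1.26 CPM in LED1000 and 18.5 ± 4.75 CPM in control (log2 fold change -2.70 ± 0.388, adjusted p = 1.1e-05), and Fos averaged 24.6 ± 0.929 CPM in LED1000 and 11.6 ± 3.71 CPM in control (log2 fold change 1.09 ± 0.298, adjusted p = 0.0051; not called under bipolar scaling, adjusted p 0.086). The phosphatase genes Dusp6 and Dusp5 had log2 fold changes of 1.73 and -0.97, and Btg2 had -0.97.

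Genes of the integrated stress and unfolded protein response were called lower for 14 of 34 and higher for 3 (none higher and 24 lower under bipolar scaling; 12 and 11 on log2(FPKM + 1)). Atf4, their shared transcription factor, had 224, 252 and 299 CPM in LED1000, against 529, 539.6 and 519.8 CPM in control (log2 fold change -1.03 ± 0.116, adjusted p = 4.8e-07). Ddit4, an inhibitor of mTORC1, Slc7a5, an amino acid transporter, and Ern1, the sensor IRE1α, had log2 fold changes of -0.97, -0.77 and -0.84. Heat shock genes had 7 rises and 5 falls among 14 (1 and 7 under bipolar scaling); Hspa1b, an inducible HSP70, had 4.27, 5.55 and 4.75 CPM in LED1000, against 114, 94.4 and 136 CPM in control (log2 fold change -4.56 ± 0.364, adjusted p = 2.9e-08), and could share reads with its near copy. Hsf1, the master factor of the heat shock response, Hspa4l and Dnajb1 had log2 fold changes of -1.28, -1.09 and -0.71. Of 30 NRF2 and antioxidant genes, 18 were higher and 1 lower. Under bipolar scaling 4 were higher and 7 lower, beside 7.78% higher and 47.0% lower of all tested genes. Hmox1, heme oxygenase 1, averaged 5.01 ± 1.25 CPM in LED1000 and 1.42 ± 0.134 CPM in control (log2 fold change 1.82 ± 0.291, adjusted p = 3.2e-05). Sqstm1, the autophagy receptor p62, Srxn1, sulfiredoxin, and Prdx6, a peroxiredoxin of glia, had log2 fold changes of 0.85, 0.66 and 0.85; the calls of Srxn1 and Prdx6 were lost under bipolar scaling. Iron genes had 9 rises and 4 falls among 18 (4 and 7 under bipolar scaling). Tf, transferrin, had 1103, 1153 and 1268 CPM in LED1000, against 42.1, 50.9 and 161 CPM in control, without overlap (log2 fold change 3.80 ± 0.541, adjusted p = 3e-05; 4.64 without control replicate 3). Its receptor Tfrc averaged 65.1 ± 1.41 CPM in LED1000 and 127 ± 7.4 CPM in control (log2 fold change -0.97 ± 0.0947, adjusted p = 8.1e-08). Slc11a2, the iron importer DMT1, had a log2 fold change of -0.81.

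Cell death genes had 10 rises and 7 falls among 31 (3 and 10 under bipolar scaling), beside 27.7% higher and 26.8% lower of all tested genes. Casp4, an inflammatory caspase, averaged 3.52 ± 0.403 CPM in LED1000 and 0.567 ± 0.279 CPM in control (log2 fold change 2.62 ± 0.401, adjusted p = 2e-05). Parp1, a DNA damage sensor, Aifm1, apoptosis-inducing factor, and Bcl2l1, a survival protein, had log2 fold changes of -0.72, -0.84 and 0.54; the call of Bcl2l1 was lost under bipolar scaling. Nuclear genes of oxidative phosphorylation had 6 rises and 5 falls among 40, with 28 falls under bipolar scaling and 28 rises on log2(FPKM + 1). The 24 cholesterol synthesis genes had 6 rises and 1 fall, against 13 falls under bipolar scaling and 20 rises on log2(FPKM + 1). Neither list had a direction that held across the scalings. The calls with the lowest adjusted p were small, with log2 fold changes of -0.37 for Atp5f1b, 0.44 for Cox6b1, -0.37 for Ndufs7 and -0.51 for Ndufa4 on the first list. On the second they were 0.45 for Sqle, 0.29 for Hmgcs1, -0.46 for Lss and 0.37 for Fdps. Of these, the calls of Atp5f1b, Ndufs7, Ndufa4 and Lss were lost on FPKM values (adjusted p 0.096 to 0.32). The call of Hmgcs1 was lost without LED1000 replicate 3 or control replicate 2, that of Fdps without LED1000 replicate 3 and that of Lss without control replicate 1, with adjusted p of 0.052 to 0.11. The rises among oxidative phosphorylation genes numbered 12 without LED1000 replicate 1, but 1 without LED1000 replicate 3 or control replicate 2, and those among cholesterol genes 2 without control replicate 2.

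Markers of neighbouring tissues were read in the same way. Of 20 lens genes 2 were called (none under bipolar scaling), Cryge, a γ crystallin with close relatives, at 1.77 and Birc7 at 1.78. Neither call held without LED1000 replicate 2 or without control replicate 1 or 3, and that of Birc7 was also lost without LED1000 replicate 3 (adjusted p 0.051 to 0.1). The iris, ciliary body and cornea list summed to 509 to 539.8 CPM in LED1000 and 234 to 500.3 CPM in control. Besides Myoc, Slc4a4, a bicarbonate transporter, was higher at 0.80 and Krt14, a keratin of surface epithelia, lower at -3.03. The call of Krt14 was lost without LED1000 replicate 2 or 3 or control replicate 1 or 2 (adjusted p 0.082 to 0.13), and its log2 fold change was -3.98 without LED1000 replicate 1. Of 12 skeletal muscle genes only Pvalb, which retinal neurons also express, was called, at 0.93. Erythrocyte genes had 4 rises among 8 (none under bipolar scaling) and summed to 113 to 160.3 CPM in LED1000 and 27.1 to 66.5 CPM in control. The rises were the globin genes Hbb, Hba-a1 and Hba-a2 at 2.18, 1.72 and 1.5, which share reads in part, and Alas2, the heme synthesis enzyme of red cells, at 2.30. Each of their calls was lost without some single library. That of Hbb was lost without LED1000 replicate 2 or control replicate 1 or 2, that of Hba-a1 without LED1000 replicate 3 or control replicate 1 or 2, that of Hba-a2 without any library but control replicate 3, and that of Alas2 without any but control replicate 2, with adjusted p of 0.05 to 0.14. The largest single-library shifts were to 3.06 for Hbb without control replicate 3 and to 3.09 for Alas2 without control replicate 2. The part of blood or anterior eye tissue in the rises above was not tested.

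Few genes were called between LED1000 and the other light groups. With 3 libraries per group, a missing call does not show equal levels. Against LED200, 11 of 16006 genes were called (0.0687%), 8 higher (0.05%) and 3 lower (0.0187%) in LED1000. Against Blue1000, 42 were called (0.262%), 29 higher (0.181%) and 13 lower (0.0812%), and against Hal1000, 4 were called (0.025%), 2 in each direction (0.0125%). At an unadjusted p under 0.05 there were 2332, 3530 and 1587 such genes, and DESeq2 called 171, 760 and 60. The count against Blue1000 was 1364 without LED1000 replicate 1 and 2 to 25 without another library, so it rested on single libraries. Some list sums, picked after the values were seen and not tested, lay apart from LED200, Blue1000 and Hal1000. The interferon list summed to 519.7 to 549.7 CPM in LED1000 and 337 to 460.1 CPM in those groups. For the class I list the sums were 1190.4 to 1452 CPM and 952 to 1125 CPM. The bipolar list went the other way, with 4531 to 5417 CPM and 5612 to 6406 CPM.

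Vgf, a neuropeptide precursor induced by neurotrophins, had 124, 123 and 128 CPM in LED1000, 81.9, 80 and 79.7 CPM in LED200, 77.2, 74.8 and 74.8 CPM in Blue1000, 121, 132 and 124 CPM in Hal1000 and 64.1, 77.9 and 69.9 CPM in control. LED1000 was higher than LED200 (log2 fold change 0.63 ± 0.0839, adjusted p = 0.0026) and Blue1000 (log2 fold change 0.73 ± 0.084, adjusted p = 0.00085), and both calls held when any 1 library was left out, with adjusted p up to 0.02 and 0.011. The Hal1000 values lay on both sides of those of LED1000. Lgi4, a secreted glial ligand, averaged 180.5 ± 4.43 CPM in LED1000 and 122 ± 12.7 CPM in LED200 (log2 fold change 0.56 ± 0.0757, adjusted p = 0.0026), and this call also held, with adjusted p up to 0.029. The other called genes named by the rule against LED200 were Espn, Sat1, Car2 and Pgm2l1, with log2 fold changes of 0.61, 0.77, 0.41 and -0.62; each lost its call when some single library was left out.

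Dio2, the deiodinase that activates thyroid hormone, had 30.4, 30.8 and 31.1 CPM in LED1000, 17.3, 17.4 and 11.6 CPM in LED200 and 15.9, 11.5 and 14.6 CPM in Blue1000 (log2 fold change 0.99 ± 0.175, adjusted p = 0.04 against LED200; log2 fold change 1.14 ± 0.176, adjusted p = 0.013 against Blue1000). It had 41.2, 38 and 41.2 CPM in Hal1000, above LED1000 without a call, and 13.1, 15 and 11 CPM in control. Cartpt, a neuropeptide of amacrine and ganglion cells, averaged 201 ± 41.4 CPM in LED1000, 124 ± 4.24 CPM in LED200 and 112 ± 16 CPM in Blue1000 (log2 fold change 0.69 ± 0.125, adjusted p = 0.045 against LED200; log2 fold change 0.84 ± 0.125, adjusted p = 0.011 against Blue1000). Bdnf, a neurotrophin, averaged 10.7 ± 1.17 CPM in LED1000 and 5.32 ± 0.994 CPM in Blue1000 (log2 fold change 1.01 ± 0.164, adjusted p = 0.017), and its receptor Ngfr averaged 43.5 ± 0.592 CPM in LED1000 and 77.9 ± 1.13 CPM in Blue1000 (log2 fold change -0.84 ± 0.131, adjusted p = 0.013). Nts, the neurotensin precursor, had 0.412, 0.259 and 0.0879 CPM in LED1000 and 7.11, 0.811 and 4.14 CPM in Blue1000 (log2 fold change -3.97 ± 0.692, adjusted p = 0.028). Taf13 and Limch1 had log2 fold changes over Blue1000 of 0.78 and -0.46. Against Hal1000, Asmt, the last enzyme of melatonin synthesis, averaged 16.3 ± 1.59 CPM in LED1000 and 8.42 ± 0.361 CPM in Hal1000 (log2 fold change 0.95 ± 0.15, adjusted p = 0.024). Calb1, calbindin, averaged 62.5 ± 3.86 CPM in LED1000 and 29.6 ± 3.62 CPM in Hal1000 (log2 fold change 1.08 ± 0.174, adjusted p = 0.027). Vax2, a factor that patterns the ventral eye, averaged 14.8 ± 2.67 CPM in LED1000 and 38 ± 1.8 CPM in Hal1000 (log2 fold change -1.36 ± 0.211, adjusted p = 0.024). Control retinas averaged 17.1 ± 4.17 CPM of Asmt, 39.8 ± 7.95 CPM of Calb1 and 50.6 ± 17.9 CPM of Vax2. The calls of Dio2, Cartpt, Bdnf, Ngfr, Nts, Taf13, Limch1, Asmt, Calb1 and Vax2 were each lost when some single library was left out, with adjusted p up to 0.31 for Calb1. RGD1563400, an uncharacterised gene named after its values were seen, had 0 counts in LED1000. It had 0.799, 2.53 and 0.814 CPM in LED200, 1.07, 1.2 and 0.982 CPM in Blue1000, 2.25, 2.51 and 2.59 CPM in Hal1000 and 0.148, 0.337 and 0.405 CPM in control. It was called lower against each of LED200, Blue1000 and Hal1000, with leave-one-out adjusted p up to 0.02, 0.037 and 0.0096.

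**Figure D5:**
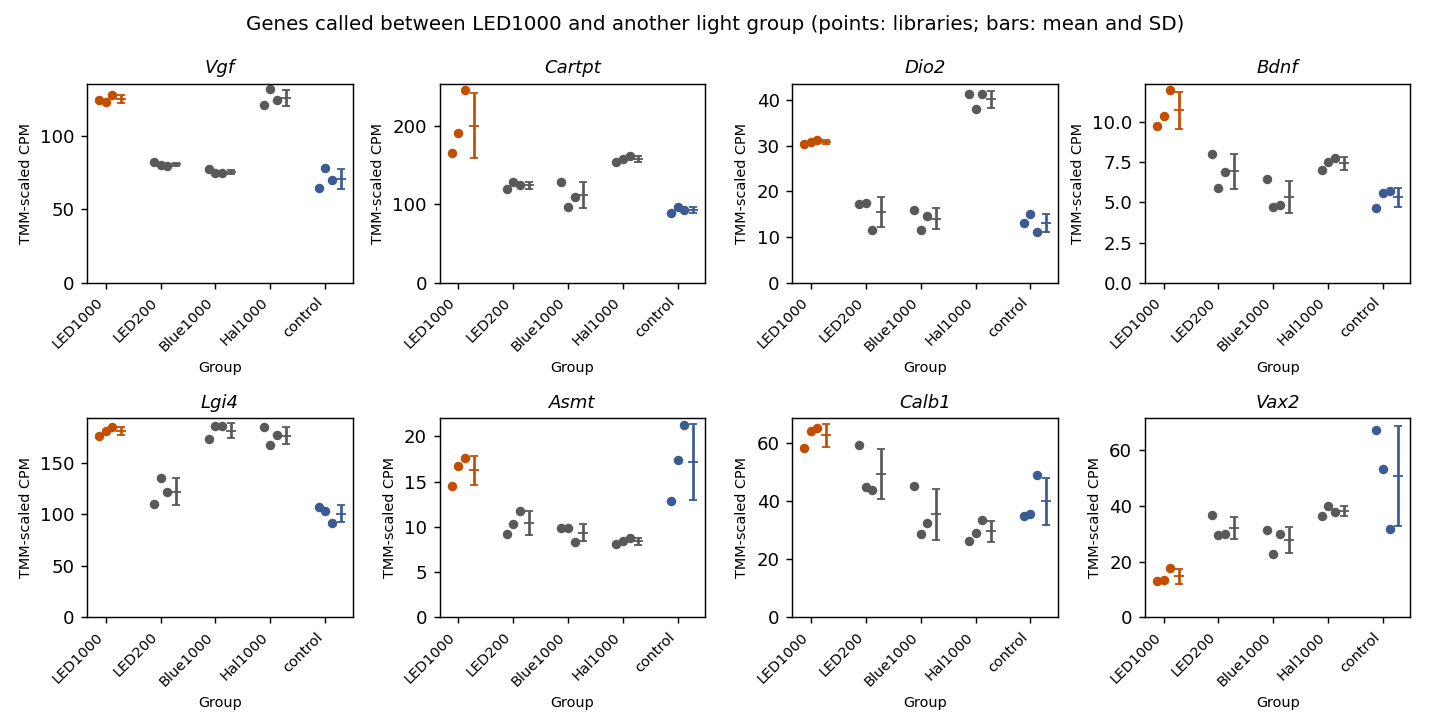
TMM-scaled CPM of 8 genes called between LED1000 and another light group, for LED1000, LED200, Blue1000, Hal1000 and control; points are libraries, and the cross bars and whiskers beside them are mean and SD (n = 3). The 3 Vgf values of LED1000 lie at 123 to 128 CPM, above all LED200, Blue1000 and control libraries, and Vax2 is lowest in LED1000.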

How the data were processed

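Retinal RNA was sequenced in 21 libraries, which the labels' protocols say were made with a VAHTS Universal V6 kit. The authors deposited a table of whole-number counts per gene and a table of FPKM values, which scale counts by transcript length and library size; R 3.2.0 is named in the submitters' processing notes. The sources used here do not name the aligner, the counter, the strand setting or the genome build. No 2 libraries of a group agreed within sampling noise (chi-square test of their counts). From the counts, genes were kept with edgeR's filterByExpr (minimum count 10, total 15), scaled by TMM and tested with edgeR's quasi-likelihood F-test (edgeR 4.0.16, R 4.3.3), fitted on all 21 libraries with 1 mean per group, and p-values were Benjamini-Hochberg adjusted over all tested genes. A gene was called at an adjusted p under 0.05. Standard errors are the absolute log2 fold change divided by the square root of F. CPM are TMM-scaled, and ± gives the SD (n = 3) for CPM and the standard error for log2 fold changes. The script was tested on simulated data.

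Alternatives used DESeq2 1.42.0, limma 3.58.1 on log2(FPKM + 1), log2(FPKM + 0.1) and with voom quality weights, DESeq2 size factors, no filter, only the 6 libraries, the replicate number as a block, and a scaling to the bipolar list (20% trimmed mean). Each library was also left out in turn, and, after seeing the data, LED1000 replicate 2 and control replicate 3 together. Named genes were the 12 largest rises and 12 largest falls with at least 1 CPM and no overlap, up to 4 called genes per list by adjusted p and other list members, a set list, up to 10 of the most abundant called genes in each direction, and up to 8 genes called against each other light group. Not every gene picked by that rule is named. The genes and the 44 lists were chosen with earlier results of these data known; 8 listed symbols were not matched. Depth was 30404774 to 33102674 counts per library in the 6 libraries, where a floor of 3 counts is 0.0875 CPM in LED1000 and 0.108 CPM in control. With 3 libraries against 3, an exact permutation test cannot go below a p of 0.1, so no such test was used.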

Additional observations from a re-analysis of the deposited data

Results flagged for a closer look

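The genes below are flagged because their LED1000 levels differed from those under another light, by edgeR's test of that difference, which is the same as a difference between the 2 light effects, since the groups share the control libraries. Values are log2 fold changes of LED1000 over the other group. Against LED200 they were 0.63 for Vgf, 0.56 for Lgi4, 0.61 for Espn, 0.77 for Sat1, 0.99 for Dio2, 0.41 for Car2, 0.69 for Cartpt and -0.62 for Pgm2l1. Against Blue1000 they were 0.73 for Vgf, 0.84 for Cartpt, 1.14 for Dio2, 1.01 for Bdnf, 0.78 for Taf13, -0.84 for Ngfr, -0.46 for Limch1 and -3.97 for Nts. Against Hal1000 they were 0.95 for Asmt, 1.08 for Calb1 and -1.36 for Vax2. The calls of Vgf and Lgi4 held without any 1 library. The other 16 calls did not, and how much of them rests on single libraries was not tested further.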

How the results depend on the processing

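The number of genes called between LED1000 and control stayed within 1.5 times of 8725 under every alternative, with 7511 when only the 6 libraries were fitted, 8461 with the replicate block, 10572 with voom quality weights and 7558 to 8745 when 1 library was left out. Its split did not. Under bipolar scaling 1246 were higher and 7524 lower, on log2(FPKM + 1) 6919 and 2684, and on log2(FPKM + 0.1) 7073 and 2664. Against the other lights the counts moved with the test. DESeq2 called 171 genes against LED200, 760 against Blue1000 and 60 against Hal1000. With the replicate block there were 3, 20 and 3, and with 1 library left out 3 to 16, 2 to 1364 and 1 to 2. The same-numbered libraries of LED1000 and another group correlated at -0.042 to 0.0649, and differently numbered ones at -0.0928 to 0.0891. No pairing by number showed in these values, but they cannot exclude one. For 258 named genes under 4075 combinations of gene and setting, the direction changed in 17 and the call was lost in 232 and gained in 19. Under bipolar scaling the log2 fold changes were -0.33 for Arr3, -0.13 for Cnga3, -0.32 for Glul, -0.2 for Vegfa, 0 for Plvap, -0.07 for Aldoc, -0.19 for Eno1, -0.3 for Eno2, -0.1 for Snap25, -0.03 for Cox6b1, -0.1 for Fdps, -0.17 for Hmgcs1 and -0.02 for Sqle. Arr3 ran from -0.04 (without control replicate 3) to 0.27 when 1 library was left out, and was -0.03 without LED1000 replicate 2 and control replicate 3, and Stat3 was 0.1 on log2(FPKM + 1) and on log2(FPKM + 0.1). Where no scaling is given above, the cause was not tested. At this depth 3 counts are 0.0875 CPM in LED1000 and 0.108 CPM in control, so values near or under these, as of Edn2 and Lamb3 in LED1000 and of Il20ra and Mog in control, rest on few counts.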
